A study of Mus musculus with 3 samples.

Results

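Cytosolic ribosomal protein genes encode the proteins of the ribosomes that translate nuclear mRNA. They were taken from the deposited counts by symbol, as Rpl or Rps followed by a number with its usual suffixes, or as Rplp0, Rplp1, Rplp2 and Rpsa, and symbols with a pseudogene ending (-ps) were left out. This gave 87 of the 20937 listed symbols, 51 of the large subunit and 36 of the small subunit. The 87 include 5 intronless copies (retrocopies) without that ending that are annotated as processed pseudogenes. The study sequenced RNA of whole incisor enamel organs from male mice aged 4 weeks, in 3 libraries, 1 per genotype, to ask how loss of Stim1 in ameloblasts alters gene expression. Stim1 cKO carried AmelX-iCre and 2 floxed Stim1 alleles (Stim1 fl/fl), Stim1 HT carried AmelX-iCre and 1 floxed allele (Stim1 fl/wt), and Stim1 Ctrl was Stim1 fl/fl without Cre. All 3 genotypes thus held at least 1 floxed allele. The Cre is driven by the amelogenin promoter, active in ameloblasts from the secretory stage on, whereas the enamel organ also holds cells that this Cre does not reach. There were no replicates, so no value below has an error from mice of the same genotype.

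A ribosome joins ribosomal RNA and ribosomal proteins in a small subunit, which decodes the mRNA, and a large subunit, which forms the peptide bond. The mRNAs of ribosomal proteins are abundant and begin with a pyrimidine tract (TOP), through which mTORC1 and the RNA-binding protein Larp1 control their translation together. Secretory-stage ameloblasts synthesise and export enamel matrix proteins in bulk, and a few ribosomal proteins have paralogs with levels that differ between tissues, such as Rpl3l in striated muscle.

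Stim1, the targeted gene on chromosome 7, was at 72.8, 129 and 186 CPM in Stim1 cKO, Stim1 HT and Stim1 Ctrl. CPM here are counts scaled to the size of each library after TMM, a scaling that brings most genes to a common level. These values come from all cells of the organ, and neither edgeR nor DESeq2 called the gene at the threshold used below (log2 fold change -1.11, adjusted p 0.106 in edgeR and 0.0207 in DESeq2). The ameloblast markers Amelx, Ambn, Enam and Mmp20 were present in every library, with summed levels of 3583, 31162 and 23106 CPM in Stim1 cKO, Stim1 HT and Stim1 Ctrl, lowest in Stim1 cKO, which also held markers of tissues other than the organ, described below. Total counts were 21496136, 20216507 and 28265960 in the same order. A count of 3, the floor used here, equalled 0.124, 0.152 and 0.117 CPM in Stim1 cKO, Stim1 HT and Stim1 Ctrl, and the lowest count of any ribosomal protein gene was 5. Floors and intervals cover counting error only.

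Ribosomal protein transcripts were most abundant in Stim1 HT, and Stim1 cKO lay near Stim1 Ctrl, above it by share of counts and below it in TMM-scaled CPM. The 87 genes held, of all counts, 3.88% (95% Wilson interval 3.87 to 3.89%) in Stim1 cKO, 5.83% (5.82 to 5.84%) in Stim1 HT and 3.35% (3.34 to 3.36%) in Stim1 Ctrl. On the CPM scale their summed level was 34455, 59798 and 36785 in Stim1 cKO, Stim1 HT and Stim1 Ctrl, over the 86 genes with enough counts to be tested. The intervals of the 3 libraries did not overlap, and the 2 control libraries stood farther apart than Stim1 cKO and Stim1 Ctrl. Mitochondrially encoded genes, which enter the same total, held 5.20%, 2.58% and 2.82% of the counts in Stim1 cKO, Stim1 HT and Stim1 Ctrl. In bulk RNA, fewer cells of a type and less RNA per cell cannot be told apart.

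**Figure D1:**
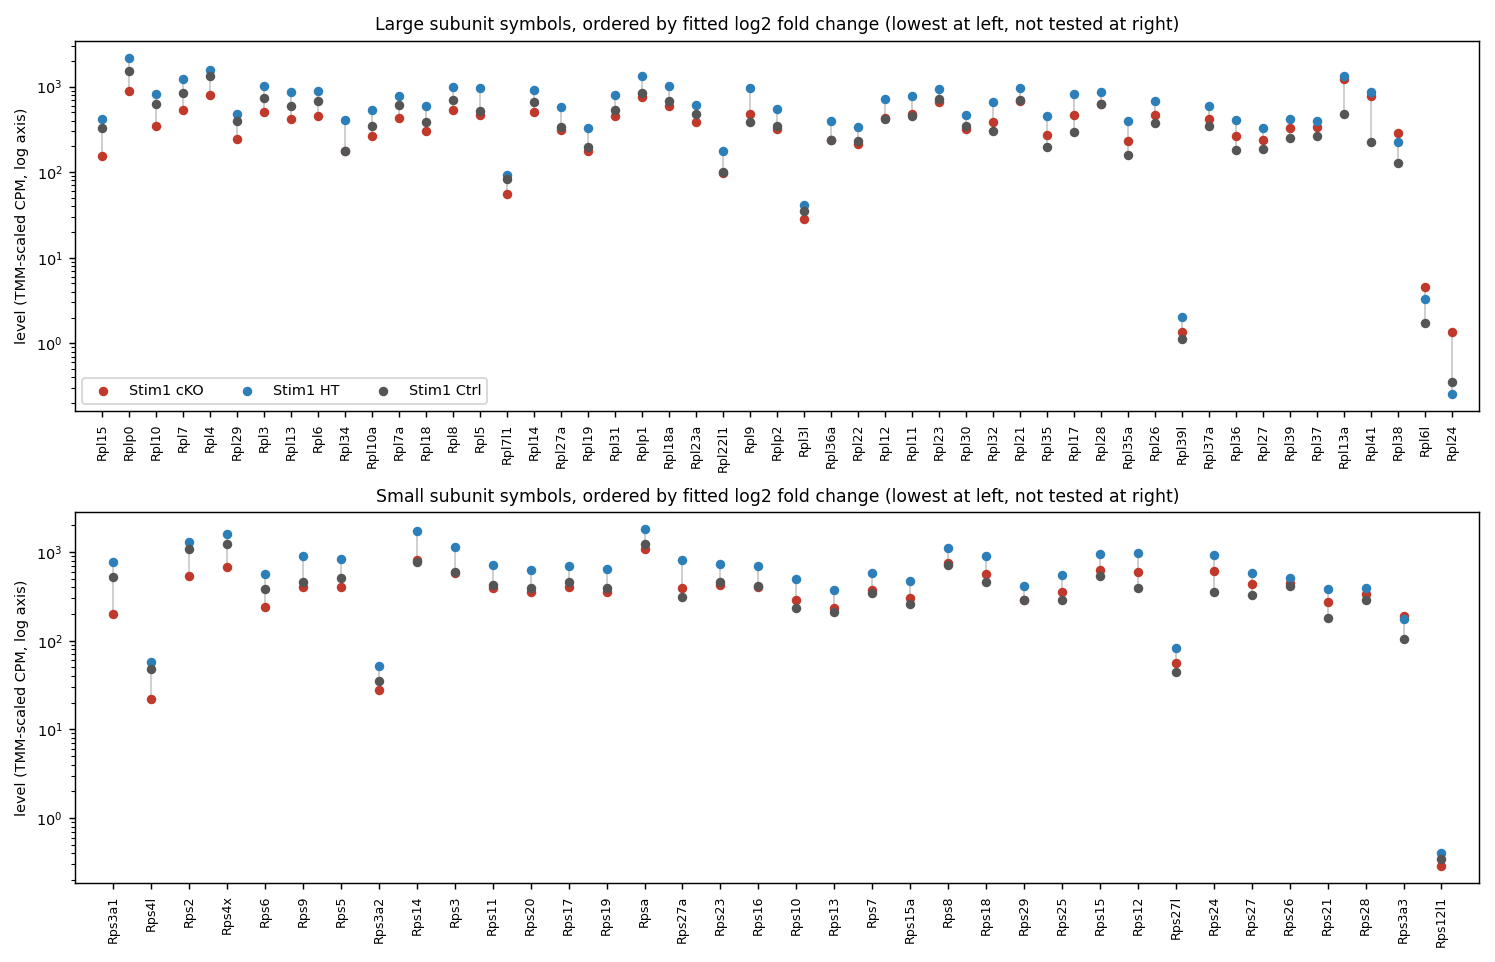
Level of each ribosomal protein gene in each library, as TMM-scaled CPM on a log axis, with the large subunit above and the small subunit below; each point is 1 library, and a grey line joins the lowest to the highest. Stim1 HT is the highest library for 82 of the 86 tested genes, or 79 with library size scaling, and Rpl24, Rpl39l, Rpl6l and Rps12l1 lie far under the rest.

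Stim1 cKO was compared with the grouped controls, Stim1 HT and Stim1 Ctrl, as the study did. Most ribosomal protein genes were lower in Stim1 cKO than the average of the controls, by a moderate amount. The fitted log2 fold change was below 0 in 79 of the 86 tested genes (50.4% of all 18702 genes tested), and under the other scalings in 65 (library size) to 79 (RLE). The median log2 fold change was -0.46, with quartiles of -0.66 and -0.24, against -0.01 over all genes tested. Library size scaling shifted the median of all genes to 0.25 and upper-quartile scaling to 0.12. Relative to the median of all genes, the ribosomal protein median was -0.46 under both and -0.45 with TMM, and 79 of the genes lay under the all-gene median with each.

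No single gene passed the threshold of an adjusted p under 0.01 with more than a 2-fold difference in edgeR's quasi-likelihood test. It called 0 of the 86 genes lower (0% of all genes tested) and 0 higher (0.0749%). At an unadjusted p under 0.05 it gave 6 lower (13.4% of all genes) and 1 higher (18.5%), and at an adjusted p under 0.05 with over 2-fold, 0 lower (2.88%) and 0 higher (6.8%). DESeq2 with the first threshold called 6 lower (5.26% of the genes it tested) and 0 higher (6.3%). The 6 genes were in both cases Rpl10, Rpl15, Rps2, Rps3a1, Rps4l and Rps4x, a share of 6.98% that lies near the DESeq2 background. More than 2-fold lower without a test were 7 genes (11.3% of all genes), these 6 and Rplp0, and more than 2-fold higher was 1 (22.9%), Rpl24. The spread behind both tests is the gap between the control libraries, whose genotypes differ as well. That gap exceeded the fitted change in 61 of the 86 genes, 70.9%, against 29.7% of all genes tested.

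The 2 controls placed Stim1 cKO differently. It lay below both in 48 genes (42.1% of all genes tested), between them in 34 (14.3%) and above both in 4 (43.6%), which were Rpl24, Rpl38, Rpl6l and Rps3a3. The count below both was 31 with upper-quartile and 23 with library size scaling. Against Stim1 HT alone Stim1 cKO was lower in 82 of 86 genes (49.5%), or 79 with library size scaling, with a median log2 ratio of -0.76. Against Stim1 Ctrl alone it was lower in 48 (49%), with a median log2 ratio of -0.04, which library size scaling turned to 0.26 and upper-quartile scaling to 0.12, both under the all-gene medians of 0.33 and 0.19. The lower level against the grouped controls thus rested on Stim1 HT for its size.

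Cell type markers differed between the libraries beside these values, and of all genes DESeq2 called 5.26% lower and 6.3% higher. edgeR called 0 of all 18702 genes lower and 14 higher, so its 0 lower calls say nothing about a single list. The 12 skeletal muscle markers summed to 6102, 22828 and 26697 CPM in Stim1 cKO, Stim1 HT and Stim1 Ctrl, with Acta1 the most abundant, and DESeq2 called 8 of them lower while edgeR called 0. The 5 perinatal muscle markers, led by Myh8, summed to 475, 6133 and 11132 CPM in the same order, with 5 lower in DESeq2 and 0 in edgeR. Both sums were lowest in Stim1 cKO and highest in Stim1 Ctrl, an order that not every gene of the lists had, as Mylpf, Pvalb and Myog were highest in Stim1 HT and Myh4 in Stim1 cKO. The 11 proliferation genes, led by Mki67, summed to 379, 863 and 1087 CPM in Stim1 cKO, Stim1 HT and Stim1 Ctrl, and DESeq2 called 8 lower, edgeR 0. The 8 fibroblast and bone markers, led by Col1a1, summed to 36203, 50525 and 77564 CPM, with 2 lower in DESeq2 and 0 in edgeR. The 7 erythroid markers, led by Hbb-bs, summed to 1054, 2327 and 1699 CPM, with 4 lower in DESeq2 and 0 in edgeR.

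Some other markers were highest in Stim1 cKO. Gnat1, the transducin subunit of rods, had 4294, 2 and 5 counts in Stim1 cKO, Stim1 HT and Stim1 Ctrl, and Prph2, of the photoreceptor discs, 2509, 2 and 2, so both were under the floor in a control. Sag, also of photoreceptors, was at 109, 1.17 and 0.466 CPM, and the lens gene Cryaa at 167, 4.36 and 3.46 CPM. edgeR called Gnat1, Prph2 and Cryaa higher, and DESeq2 called these and Sag. The 6 neuron markers, led by Syt1, summed to 513, 81.0 and 71.5 CPM, with 5 higher in DESeq2 and 0 in edgeR, while Nefl was close to level between Stim1 cKO and Stim1 Ctrl. The 6 lymphocyte and plasma cell markers, led by Igkc, summed to 125, 27.9 and 11.8 CPM in Stim1 cKO, Stim1 HT and Stim1 Ctrl, with 2 higher in DESeq2 and 0 in edgeR, and Jchain was at 2 counts in Stim1 Ctrl. The 4 maturation-stage ameloblast markers, led by Odam, summed to 894, 379 and 166 CPM, with 1 higher in DESeq2 and 0 in edgeR. Odam was the largest of the 4 in each library, at 693, 196 and 75.1 CPM, with Amtn close to it in Stim1 Ctrl (72.4 CPM). Amtn (150 and 145 CPM) and Klk4 (28.9 and 30.1 CPM) were close to level between Stim1 cKO and Stim1 HT. Of the 4 secretory-stage markers, led by Amelx, DESeq2 called 3 lower and edgeR 0. Ribosomal protein levels differ between cell types, and the part of these cell types in the ribosomal protein values was not tested.

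Among the core proteins of the large subunit, Rpl15, Rpl10 and Rplp0 had the lowest fitted values. Rpl15, a large-subunit protein encoded on chromosome 14 from 18267823 to 18271391 on the reverse strand (GENCODE M21, GRCm38), was at 155, 413 and 331 CPM in Stim1 cKO, Stim1 HT and Stim1 Ctrl. Rpl10, which joins the subunit late in its maturation and lies on chromosome X from 74270812 to 74273135, was at 349, 810 and 628 CPM in Stim1 cKO, Stim1 HT and Stim1 Ctrl. In both genes Stim1 cKO lay below both controls, and the controls lay closer to each other than to Stim1 cKO. The log2 fold change was -1.27 for Rpl15 (adjusted p 0.0786 in edgeR and 0.000885 in DESeq2) and -1.04 for Rpl10 (0.131 and 0.00829). The 120 bases around the RefSeq start of Rpl15 are shown because it was the lowest gene of the large subunit. This start lies inside the GENCODE span given above. The 120 bases run from 100 before the start to 20 bases from the start on. They lie at chr14:18270967-18271086, reverse strand, of GRCm38.p6, and capitals mark the motifs CCGGAAG and CTTTCC on either strand.
Rpl15: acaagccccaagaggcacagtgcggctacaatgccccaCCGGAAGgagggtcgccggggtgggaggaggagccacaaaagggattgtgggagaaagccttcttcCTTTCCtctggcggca

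Rplp0, Rplp1 and Rplp2 form the P stalk, the arm of the large subunit that recruits elongation factors, with Rplp0 at its base. Rplp0 was at 895, 2184 and 1507 CPM in Stim1 cKO, Stim1 HT and Stim1 Ctrl. Rplp1 was at 749, 1335 and 843 CPM in the same order, and Rplp2 at 321, 542 and 342 CPM. With TMM scaling all 3 mRNAs were lowest in Stim1 cKO. Rplp0 lay far under Stim1 Ctrl there, and its acidic partners Rplp1 and Rplp2 lay near it. The log2 fold change was -1.04 for Rplp0 (adjusted p 0.177 in edgeR, 0.0159 in DESeq2), -0.54 for Rplp1 (0.431 and 0.327) and -0.46 for Rplp2 (0.468 and 0.426). Without Stim1 HT, the log2 ratio to Stim1 Ctrl was -0.75 for Rplp0, -0.17 for Rplp1 and -0.09 for Rplp2. Library size scaling turned the ratios of Rplp1 and Rplp2 to 0.14 and 0.21, under the all-gene median of 0.33, and upper-quartile scaling turned that of Rplp2 to 0.07, under the all-gene median of 0.19. None of the 3 genes was called by either tool. Of all genes, edgeR called 0% lower and 0.0749% higher, and DESeq2 5.26% and 6.3%. At an unadjusted p under 0.05 edgeR gave 0 of the 3 (13.4% of all genes lower, 18.5% higher).

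Rpl5 and Rpl11 bind the 5S ribosomal RNA and, when not built into ribosomes, bind Mdm2 and so stabilise p53. Rpl5 was at 469, 965 and 524 CPM in Stim1 cKO, Stim1 HT and Stim1 Ctrl. Rpl11 was at 477, 771 and 452 CPM in Stim1 cKO, Stim1 HT and Stim1 Ctrl. In both genes Stim1 HT stood alone and Stim1 cKO lay beside Stim1 Ctrl. The log2 fold change was -0.67 for Rpl5 (adjusted p 0.383 in edgeR, 0.276 in DESeq2) and -0.36 for Rpl11 (0.605 and 0.582). Without Stim1 HT these became log2 ratios of -0.16 for Rpl5 and 0.08 for Rpl11, a turn of direction for Rpl11, and for Rpl5 too with library size scaling (0.15, under the all-gene median of 0.33) and barely with upper-quartile scaling (0.00463). Of the exon bases of Rpl5, 26.7% are shared with another gene, mostly Fam69a on the opposite strand, so its counts are uncertain where strand was not used.

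In the small subunit, Rps3a1, Rps2 and Rps4x had the lowest fitted values of the core genes. Rps3a1, a protein near the exit of the mRNA channel, is encoded on chromosome 3 from 86137940 to 86142702 and was at 201, 766 and 526 CPM in Stim1 cKO, Stim1 HT and Stim1 Ctrl. Rps2, near the entry of that channel, is encoded on chromosome 17 from 24718116 to 24721929 and was at 530, 1292 and 1070 CPM in Stim1 cKO, Stim1 HT and Stim1 Ctrl. Rps4x, the X-linked Rps4 gene, was at 681, 1595 and 1234 CPM in Stim1 cKO, Stim1 HT and Stim1 Ctrl. Stim1 cKO was the lowest library for each of these 3 genes, and Rps3a1 had the lowest log2 fold change of all ribosomal protein genes tested. That value was -1.68 for Rps3a1 (adjusted p 0.066 in edgeR, 3.03e-05 in DESeq2), -1.15 for Rps2 (0.115 and 0.00166) and -1.05 for Rps4x (0.148 and 0.00707). The windows of the 3 genes are shown as those of the lowest core genes of the small subunit, on the same 120 bases, at chr3:86142649-86142768 (reverse strand), chr17:24719963-24720082 (forward) and chrX:102189372-102189491 (reverse) of GRCm38.p6. Capitals mark the motifs CCGGAAG and CTCTTTC in Rps3a1 and the motif CTTTCC in the other genes, on either strand.
Rps3a1: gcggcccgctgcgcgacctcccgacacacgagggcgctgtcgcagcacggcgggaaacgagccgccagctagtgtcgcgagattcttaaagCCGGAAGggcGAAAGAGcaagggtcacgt
Rps2: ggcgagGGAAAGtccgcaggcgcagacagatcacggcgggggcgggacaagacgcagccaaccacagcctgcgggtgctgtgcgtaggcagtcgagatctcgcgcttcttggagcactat
Rps4x: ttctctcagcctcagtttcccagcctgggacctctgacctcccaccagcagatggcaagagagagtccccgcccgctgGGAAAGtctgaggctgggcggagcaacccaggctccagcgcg

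The value of Rps3a1 is uncertain, since Rps3a2 and Rps3a3 are intronless copies of it. Their transcripts matched that of Rps3a1 at 99.5% and 98.9% of their bases, so a read can fit more than 1 of the 3 loci. Rps3a3 held, of the counts of the 3 genes, 45.4% (95% Wilson interval 44.4 to 46.4%) in Stim1 cKO, 17.8% (17.3 to 18.4%) in Stim1 HT and 15.8% (15.3 to 16.4%) in Stim1 Ctrl. Its own level was 191, 178 and 105 CPM in Stim1 cKO, Stim1 HT and Stim1 Ctrl. Rps3a1 and Rps3a3 thus differed in which library was lowest. Summed, the 3 genes stood at 420, 996 and 666 CPM in Stim1 cKO, Stim1 HT and Stim1 Ctrl, with log2 ratios of -1.25 to Stim1 HT and -0.67 to Stim1 Ctrl. How reads that fit several loci were counted is not given in the sources used here, and its part in the split was not tested.

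Some core genes had a fitted value above 0, the largest in Rpl24, Rpl38, Rpl41 and Rpl13a. Rpl38, which is known for its part in translating a subset of Hox mRNAs, lies on chromosome 11 from 114668524 to 114672331 and was at 284, 228 and 129 CPM in Stim1 cKO, Stim1 HT and Stim1 Ctrl. Rpl41, with the shortest coding sequence of the family (75 bases), was at 771, 873 and 227 CPM in the same order. Rpl13a, which can leave the ribosome to silence mRNAs in interferon-treated cells, was at 1234, 1341 and 483 CPM. Stim1 cKO was the highest library for Rpl38, whereas for Rpl41 and Rpl13a it lay close under Stim1 HT, with Stim1 Ctrl far lower. The log2 fold change was 0.67 for Rpl38 (adjusted p 0.312 in edgeR, 0.311 in DESeq2), 0.49 for Rpl41 (0.691 and 0.874) and 0.44 for Rpl13a (0.666 and 0.671). Without Stim1 Ctrl the log2 ratios to Stim1 HT were 0.32 for Rpl38, -0.18 for Rpl41 and -0.12 for Rpl13a, which turned the direction of Rpl41 and Rpl13a with TMM but not with library size scaling (0.03 and 0.09, under the all-gene median of 0.22). Without Stim1 HT the log2 ratios to Stim1 Ctrl were 1.13, 1.76 and 1.35. Of the exon bases of Rpl13a, 35.4% are shared with other genes, among them Gm45713. The windows of these 3 genes are shown to set them beside the lowest genes, at chr11:114668480-114668599 (forward strand), chr10:128549149-128549268 (reverse) and chr7:45128726-45128845 (reverse), with CCGGAAG and CTTTCC or their reverse complements in capitals.
Rpl38: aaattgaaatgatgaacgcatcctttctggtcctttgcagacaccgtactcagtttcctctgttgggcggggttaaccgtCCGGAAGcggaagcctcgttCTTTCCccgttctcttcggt
Rpl41: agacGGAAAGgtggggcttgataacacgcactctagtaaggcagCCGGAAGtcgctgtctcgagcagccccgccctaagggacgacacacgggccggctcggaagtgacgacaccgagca
Rpl13a: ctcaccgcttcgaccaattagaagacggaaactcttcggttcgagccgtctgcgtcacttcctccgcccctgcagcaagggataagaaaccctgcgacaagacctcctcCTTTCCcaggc

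Rpl24, which bridges the large subunit to the small one, had 33, 5 and 9 counts in Stim1 cKO, Stim1 HT and Stim1 Ctrl, or 1.36, 0.254 and 0.35 CPM. It was the only tested gene of the family that was lower in Stim1 HT than in Stim1 Ctrl, and its counts were far fewer than those of the other core genes. Its fitted log2 fold change was 2.14 (adjusted p 0.105 in edgeR, 0.487 in DESeq2). Of its exon bases 47.0% are shared with Gm28037 on the same strand, so reads of this locus may be assigned elsewhere, which was not tested.

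Large and small subunits had alike medians against the grouped controls. The median log2 fold change was -0.46 in the 51 large-subunit genes and -0.46 in the 35 tested small-subunit genes. Below 0 were 45 and 34 of them (50.4% of all genes tested). Upper-quartile and library size scaling moved both medians together, to -0.35 and -0.34 and to -0.22 and -0.21. Among the called genes of DESeq2, 2 were of the large subunit (3.92% of it) and 4 of the small subunit (11.4%), on either side of the 5.26% of all genes. Of these 4, Rps4l is a retrocopy. Without Stim1 HT the medians were -0.09 for the large and 0.07 for the small subunit with TMM, but both above 0 with upper-quartile scaling (0.07 and 0.24) and library size scaling (0.21 and 0.38), where the all-gene medians of 0.19 and 0.33 lay between them. Without Stim1 Ctrl both were -0.76. With TMM scaling Stim1 cKO lay below both controls in 32 of 51 large-subunit genes (62.7%) and in 16 of 35 small-subunit genes (45.7%). The share over all genes tested was 42.1%, near that of the small subunit. Stim1 cKO lay between the controls in 16 and 18 genes (14.3% of all genes). The difference between the subunits was not tested.

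The large subunit held 2.25%, 3.34% and 1.97% of all counts in Stim1 cKO, Stim1 HT and Stim1 Ctrl, and the small subunit 1.63%, 2.49% and 1.38%. Of the counts in the family, the large subunit thus held 58.1% (95% Wilson interval 58.0 to 58.2%) in Stim1 cKO, 57.3% (57.2 to 57.3%) in Stim1 HT and 58.7% (58.6 to 58.8%) in Stim1 Ctrl. The balance of the subunits was close to constant, with intervals that did not overlap. Per kb of exon, the median level of the 46 core large-subunit genes was 200, 349 and 218 CPM in Stim1 cKO, Stim1 HT and Stim1 Ctrl. That of the 31 core small-subunit genes was 234, 467 and 243 CPM per kb. On this scale the small subunit stood above the large one in each library. The scale divides by all annotated exon bases, which can exceed the length of a transcript. Without this division the core medians in Stim1 cKO had the other order, 422 CPM for the large and 402 CPM for the small subunit. The small subunit stayed above the large one in Stim1 HT (711 against 703 CPM) and in Stim1 Ctrl (415 against 384 CPM).

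Levels per kb of exon spread widely within the family. Rplp1 was the highest by its mean, at 1501, 2676 and 1690 CPM per kb in Stim1 cKO, Stim1 HT and Stim1 Ctrl, followed by Rps15, a protein of the small subunit's head, at 1006, 1525 and 847. Rplp0 at 539, 1316 and 909, Rpl36 at 683, 1058 and 469 and Rps4x at 418, 978 and 757 CPM per kb came next. The order of these 5 genes was not the same in the 3 libraries, as Rpl36 stood above Rplp0 in Stim1 cKO and under Rps4x in Stim1 Ctrl. Rps15 had a log2 fold change of -0.24 and Rpl36 of -0.16, with log2 ratios of 0.25 and 0.54 to Stim1 Ctrl alone, so neither kept its direction without Stim1 HT. Library size scaling gave 0.01 and 0.08, under the all-gene median of 0.25. At the other end stood Rpl3l at 17.3, 25.2 and 21.6 CPM per kb, Rpl6l at 5.21, 3.79 and 1.96, Rpl39l at 1.64, 2.44 and 1.36, Rps12l1 at 0.724, 1.02 and 0.876 and Rpl24 at 1.32, 0.246 and 0.339. Among the lowest 5 are 2 paralogs and 2 retrocopies.

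Between the controls, Stim1 HT to Stim1 Ctrl, the family shared a direction. Stim1 HT was above Stim1 Ctrl in 85 of the 86 tested genes (50.3% of all genes tested), with Rpl24 the exception, and this count was the same under RLE, upper-quartile and library size scaling. The median log2 ratio was 0.70 in the family, 0.65 in the large and 0.75 in the small subunit, against 0.00 over all genes. More than 2-fold higher in Stim1 HT were 15 genes (9.82%), 9 of the large and 6 of the small subunit, and more than 2-fold lower were 0 (3.64%). Stim1 HT was the highest of the 3 libraries in 82 genes (24.1%), or in 79 with library size scaling. With 1 library per genotype these ratios have no test.

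The largest ratios between the controls were in Rpl41, Rpl17 and Rpl13a. Between them, Rpl41 had a log2 ratio (Stim1 HT over Stim1 Ctrl) of 1.94 and Rpl13a of 1.47, from the levels given above. Rpl17, which lines the exit tunnel of the nascent peptide, was at 468, 823 and 294 CPM in Stim1 cKO, Stim1 HT and Stim1 Ctrl, a log2 ratio of 1.48 between the controls. In the small subunit the largest was Rps24, at 605, 929 and 355 CPM with a log2 ratio of 1.39, followed by Rps27a, made as a fusion with ubiquitin, at 397, 809 and 313 CPM and 1.37. In Rpl17, Rps24 and Rps27a Stim1 cKO lay between the controls and nearer to Stim1 Ctrl on the CPM scale. Among the tested genes, the smallest ratios above 0 were in the paralogs Rpl7l1, at 0.14, and Rpl3l, at 0.22. Among the 6 genes that DESeq2 called, the ratio between the controls lay from 0.27 in Rps2 to 0.54 in Rps3a1. All were under the family median, as the plot of both differences shows. The gap between the controls is also the spread behind the test, so this is not independent of the calls.

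**Figure D2:**
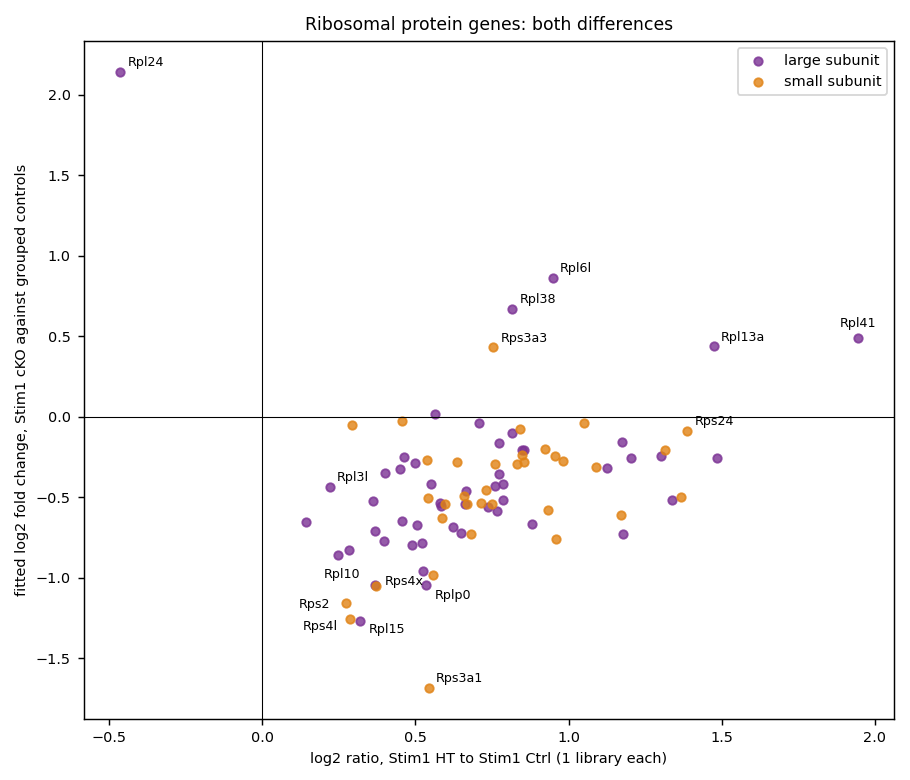
Fitted log2 fold change of Stim1 cKO against the grouped controls (vertical axis) and log2 ratio of Stim1 HT over Stim1 Ctrl (horizontal axis) of the 86 tested ribosomal protein genes, coloured by subunit; the 2 axes share the control libraries. With TMM scaling 79 genes lie under 0 on the vertical axis, 65 with library size scaling and 72 with upper-quartile scaling, and 85 lie above 0 on the horizontal axis.

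Coding length ordered the family in the comparison with the grouped controls, with the median near 0 in the shortest class and lowest in the longest. The shortest, Rpl41 (75 bases) and Rpl39 and Rpl39l (153 bases each), had log2 fold changes of 0.49, -0.04 and -0.20. The longest, Rpl4 (1257 bases), Rpl3l (1221 bases) and Rpl3 (1209 bases), had -0.86, -0.44 and -0.80. The median was -0.04 in the 11 genes of up to 300 bases, -0.32 in 17 genes over 300 to 400, -0.38 in 22 genes over 400 to 500, -0.53 in 8 genes over 500 to 600, -0.72 in 15 genes over 600 to 800 and -0.80 in 9 longer genes. In the other coding genes the medians of the same length classes were -0.02, -0.03, -0.12, -0.12, -0.14 and -0.15. Across the 82 genes with a coding length, Spearman's coefficient with the log2 fold change was -0.71, against -0.04 across the 7232 other coding genes in the same range of lengths, and 0.05 across all 15983. It was -0.70 in 50 genes of the large and -0.77 in 32 of the small subunit, and with any 1 length class left out it lay between -0.77 and -0.60. These are correlations across genes of the same 3 libraries, which share depth and scaling and are not independent replicates. With Stim1 Ctrl alone as the control Spearman's coefficient was -0.66, and with Stim1 HT alone -0.62. The median of the shortest class was then 0.33 and -0.44, and that of the longest -0.56 and -1.02, in the same order. Against Stim1 Ctrl alone the classes over 300 to 600 bases had medians near 0 (-0.00327, 0.0146 and -0.0328).

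Between the controls, length and ratio were related in the whole table. Spearman's coefficient of coding length with the log2 ratio of Stim1 HT over Stim1 Ctrl was -0.40 in the 82 ribosomal protein genes and -0.38 in the 15983 other coding genes, or -0.25 in the 7232 of them in the range of lengths of the family. Within the family the coefficient was -0.48 in the 50 genes of the large subunit and -0.18 in the 32 of the small subunit. The median log2 ratio of the other coding genes was 0.50 in the 371 genes of up to 300 bases and 0.04 in the 5254 genes over 800 to 1500 bases. In the ribosomal protein genes it was 0.82 and 0.49 in the same classes. In both classes the ribosomal protein genes thus stood above the other coding genes. The part of transcript length in the gap between the controls was not tested further.

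**Figure D3:**
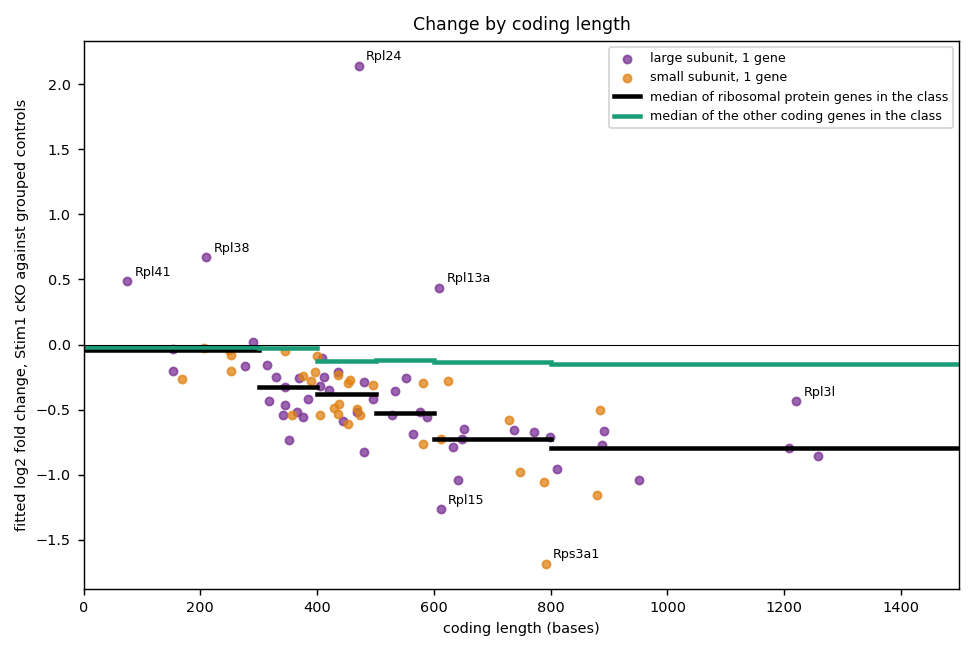
Coding length (bases) against fitted log2 fold change of Stim1 cKO against the grouped controls; each point is 1 ribosomal protein gene, and bars give the median of each length class for ribosomal protein genes (black) and for other coding genes (green). With TMM scaling the black bars go from -0.04 at up to 300 bases to -0.80 over 800 bases, while the green bars go from -0.02 to -0.15.

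Rpl3l replaces Rpl3, a protein near the peptidyl transferase centre, in ribosomes of skeletal muscle and heart. It lies on chromosome 17 from 24727820 to 24736143 and was at 28.4, 41.4 and 35.5 CPM in Stim1 cKO, Stim1 HT and Stim1 Ctrl. Rpl3 was at 506, 1028 and 732 CPM in Stim1 cKO, Stim1 HT and Stim1 Ctrl. Both were lowest in Stim1 cKO and highest in Stim1 HT, with log2 fold changes of -0.44 (adjusted p 0.287 in edgeR, 0.48 in DESeq2) and -0.80 (0.231 and 0.0769). Of the counts of the pair, Rpl3l held 5.32% (95% Wilson interval 4.95 to 5.72%) in Stim1 cKO, 3.87% (3.62 to 4.14%) in Stim1 HT and 4.63% (4.34 to 4.93%) in Stim1 Ctrl. After division by exon length the shares were 9.79%, 7.22% and 8.58%. These lengths were all annotated exon bases, 1643 for Rpl3l and 3175 for Rpl3. Single transcripts of these genes had 1375 and 1351 bases, which would leave the shares near those by counts. The share was highest in Stim1 cKO, where the skeletal muscle markers Acta1 (973, 7395 and 9788 CPM) and Myh8 (435, 5565 and 10156 CPM) were lowest. The muscle gene Myh4 had the other order, with 473, 318 and 29.1 CPM in Stim1 cKO, Stim1 HT and Stim1 Ctrl. Whether muscle bears on the Rpl3l values was not tested. The window at 1 of the 2 Rpl3l starts in RefSeq, chr17:24727726-24727845 on the forward strand, holds none of the motifs searched and is shown beside those of the core genes.
Rpl3l: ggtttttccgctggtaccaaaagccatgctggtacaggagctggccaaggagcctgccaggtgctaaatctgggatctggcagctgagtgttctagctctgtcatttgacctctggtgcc

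Of the 5 paralogs, Rpl22l1 came closest to its parent. Rpl22, an RNA-binding protein of the large subunit that restrains Rpl22l1 in other cells, was at 212, 336 and 230 CPM in Stim1 cKO, Stim1 HT and Stim1 Ctrl. Rpl22l1 was at 96.6, 175 and 102 CPM, with log2 fold changes of -0.42 for Rpl22 and -0.52 for Rpl22l1. Parent and paralog followed the same order of libraries. By counts Rpl22l1 made up, of the pair, 31.3% (30.3 to 32.4%) in Stim1 cKO, 34.3% (33.4 to 35.2%) in Stim1 HT and 30.7% (29.7 to 31.7%) in Stim1 Ctrl, and per length 40.0%, 43.3% and 39.3%. These lengths were all annotated exon bases, 1989 for Rpl22l1 and 2911 for Rpl22. Single transcripts of these genes had 552 and 2051 bases, and on those lengths Rpl22l1 would stand above Rpl22 in each library. Without Stim1 HT the log2 ratios were -0.12 for Rpl22 and -0.07 for Rpl22l1, but above 0 with library size scaling (0.19 and 0.23, all-gene median 0.33) and upper-quartile scaling (0.05 and 0.09, all-gene median 0.19).

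Rpl7l1, a relative of Rpl7 with a place in ribosome assembly, was at 55.5, 91.8 and 83.1 CPM in Stim1 cKO, Stim1 HT and Stim1 Ctrl. Rpl7 itself was at 534, 1222 and 849 CPM, and the log2 fold changes were -0.66 for Rpl7l1 and -0.96 for Rpl7. Rpl7l1 held, of the counts of the pair, 9.42% (8.95 to 9.91%) in Stim1 cKO, 6.99% (6.68 to 7.30%) in Stim1 HT and 8.91% (8.56 to 9.28%) in Stim1 Ctrl. As with Rpl3l, the share was lowest in Stim1 HT, and the intervals of Stim1 cKO and Stim1 Ctrl overlapped for Rpl7l1 but not for Rpl3l. Neither pair had a gene that edgeR or DESeq2 called (of all genes, 0% and 5.26% were called lower).

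Rps27l, a target of p53, was at 55.6, 83.7 and 44.1 CPM in Stim1 cKO, Stim1 HT and Stim1 Ctrl. Its parent Rps27 was at 433, 587 and 328 CPM. The log2 fold changes of -0.20 and -0.08 became log2 ratios of 0.33 and 0.40 to Stim1 Ctrl without Stim1 HT, so their direction depended on the control. With library size scaling they were 0.04 and 0.16, under the all-gene median of 0.25. Rps27l held, of the counts of the pair, 11.4% (10.8 to 12.0%) in Stim1 cKO, 12.5% (11.9 to 13.1%) in Stim1 HT and 11.9% (11.2 to 12.5%) in Stim1 Ctrl, with intervals that all overlapped.

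Rpl39l, a paralog enriched in testis, was near the bottom of the family, with 33, 40 and 29 counts in Stim1 cKO, Stim1 HT and Stim1 Ctrl. Its parent Rpl39, which lines the exit tunnel, was at 325, 414 and 254 CPM. The share of Rpl39l in the pair was 0.417% (0.297 to 0.585%) in Stim1 cKO, 0.488% (0.358 to 0.664%) in Stim1 HT and 0.442% (0.308 to 0.634%) in Stim1 Ctrl, which did not differ beyond counting error. Both genes had fitted values near 0, at -0.20 and -0.04, with 0.27 and 0.36 against Stim1 Ctrl alone and 0.04 and 0.21 under library size scaling, below its all-gene median of 0.25. Rpl10l, the testis paralog of Rpl10, was not listed. The window of Rpl39l, at chr16:10170128-10170247 on the forward strand, is shown because a gene this low holds the same CCGGAAG and CTTTCC, in capitals, as the window of Rpl38.
Rpl39l: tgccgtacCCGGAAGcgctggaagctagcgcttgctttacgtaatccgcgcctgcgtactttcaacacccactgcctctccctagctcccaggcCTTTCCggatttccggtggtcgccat

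**Figure D4:**
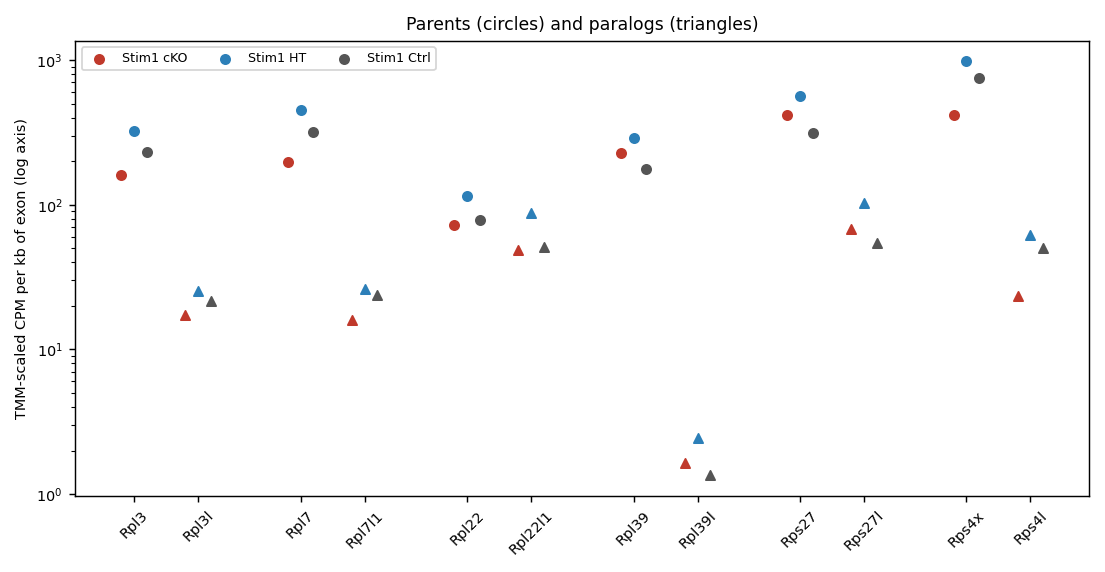
Level of the parents (circles) of the 5 paralogs and of the retrocopy Rps4l, and of these genes (triangles), in each library, as TMM-scaled CPM per kb of exon on a log axis. Among the pairs drawn, Rpl39l lies furthest under its parent, at 1.64 CPM per kb in Stim1 cKO, and Rpl22l1 lies closest to its parent; the other retrocopies are not drawn.

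Retrocopies, intronless copies made from an mRNA, differed in how far they can be told from their parents. Rps4l, on chromosome 6 from 148354656 to 148355598, matched the Rps4x transcript at 76.2% of its bases and was at 22.1, 58.2 and 47.7 CPM in Stim1 cKO, Stim1 HT and Stim1 Ctrl. Its fitted log2 fold change was -1.26 (adjusted p 0.0518 in edgeR, 0.00776 in DESeq2) beside -1.05 for Rps4x. Copy and parent thus had the same order of libraries, with Stim1 cKO lowest. Rps4l held, of the counts of the pair, 3.15% (2.89 to 3.42%) in Stim1 cKO, 3.52% (3.33 to 3.73%) in Stim1 HT and 3.72% (3.52 to 3.93%) in Stim1 Ctrl. Rpl6l, 98.7% like Rpl6, had 110, 65 and 44 counts in Stim1 cKO, Stim1 HT and Stim1 Ctrl and a log2 fold change of 0.86 (adjusted p 0.379 in edgeR), while Rpl6 had -0.77. Against Stim1 HT alone Rpl6l had a log2 ratio of 0.46, and against Stim1 Ctrl alone 1.41. Rps12l1, 100% like Rps12 over its length, had 7, 8 and 9 counts and was not tested. Near-identical copies share reads with their parents, so their values are uncertain.

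Symbols with a pseudogene ending, 131 in the table, held few counts and had another pattern. Their share of all counts was 0.0393% (0.0385 to 0.0402%) in Stim1 cKO, 0.0355% (0.0346 to 0.0363%) in Stim1 HT and 0.0235% (0.0229 to 0.0241%) in Stim1 Ctrl. Stim1 cKO was above both controls in 59 of the 102 tested (43.6% of all genes) and below both in 16 (42.1%), while Stim1 HT was above Stim1 Ctrl in 91 (50.3%), as in the parent genes. edgeR called 0 in each direction, with 4 lower (13.4% of all genes) and 17 higher (18.5%) at an unadjusted p under 0.05, and DESeq2 called 2 lower (5.26%) and 2 higher (6.3%) of 83. Rps13-ps1 was at 5.41, 48.1 and 23.4 CPM in Stim1 cKO, Stim1 HT and Stim1 Ctrl, and Rpl10a-ps2 at 5.04, 19.7 and 67.7 CPM. These 2 were the genes that DESeq2 called lower. Among those called higher was Rpl34-ps1, at 16.6, 3.04 and 0.932 CPM. Rpl38-ps2, the one with most counts beside the first 2, was at 28.9, 45.1 and 25.7 CPM, and Rps15a-ps7 at 3.10, 19.3 and 8.78 CPM. Rpl23a-ps2 had 46 counts in Stim1 cKO and 2 in each control, a ratio of 21.6 with an exact 95% counting interval of 7.88 to 82.5.

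Promoters of the family were rich in a few short motifs. RefSeq promoters, from 250 bases before to 50 after the start, were found for 62 of the 87 genes, as 74 entries out of 32851. CCGGAAG, the core that ETS factors bind, was present on either strand in 36.5% of the 74, against 8.86% of all promoters. CTCGCGAG, a palindrome of many promoters without a TATA box, was in 10.8% against 0.919%, and AAGATGGCG, the sequence that YY1 binds, in 8.11% against 1.40%. The pyrimidine motifs CTCTTTC and CTTTCC, which overlap in CTCTTTCC, were in 28.4% against 8.16% and in 48.6% against 26.6%. At least 1 of the 5 motifs was in 73.0% of the entries of the family and 37.8% of all. In the printed windows, CCGGAAG stood in Rpl15 and Rps3a1, which were low in Stim1 cKO, and also in Rpl38 and Rpl41, which were not. A match describes the letters only, and binding was not measured.

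Other ribosomal proteins and the wider translation apparatus were described with the same measures. Some ribosomal proteins carry other symbols. Rack1, the small-subunit scaffold for signalling kinases, was at 425, 1026 and 782 CPM in Stim1 cKO, Stim1 HT and Stim1 Ctrl. Its fitted log2 fold change was -1.09 (adjusted p 0.13 in edgeR, 0.00597 in DESeq2), close to those of Rps4x and Rpl10. Fau, made as a fusion with Rps30, was at 254, 430 and 192 CPM, and Rpl36al at 86.1, 130 and 90.2 CPM. These 3 genes were highest in Stim1 HT. edgeR called 0 of them, with Rack1 lower at an unadjusted p under 0.05 (13.4% of all genes), and DESeq2 called Rack1 alone (5.26% of all genes lower). The 78 mitochondrial ribosomal protein genes, compared after the values were seen, had a median of -0.43 and a median log2 ratio between the controls of 0.37.

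Translation factors whose mRNAs also begin with a pyrimidine tract had a lower median than the ribosomal proteins. Of the 17 genes 16 had a log2 fold change below 0 (50.4% of all genes), with a median of -0.68. Eef1a1, which brings aminoacyl-tRNA to the ribosome, was at 2497, 6378 and 5081 CPM in Stim1 cKO, Stim1 HT and Stim1 Ctrl. Eef2, the translocase, was at 1088, 2351 and 2579 CPM, and Eef1g at 327, 911 and 761 CPM. These 3 were the genes that DESeq2 called lower (5.26% of all genes), with log2 fold changes of -1.20, -1.18 and -1.35 and adjusted p of 0.00121, 0.000836 and 0.000148. edgeR called 0 of the 17, with 6 lower (13.4% of all genes) and 0 higher (18.5%) at an unadjusted p under 0.05. The exception in direction was Pabpc1, the poly(A)-binding protein, at 1136, 858 and 1090 CPM and 0.22. The summed level of the 17 was 8278, 16758 and 14263 CPM in Stim1 cKO, Stim1 HT and Stim1 Ctrl, so here Stim1 Ctrl was nearer to Stim1 HT than in the ribosomal proteins.

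Genes that build ribosomes lay nearer to 0. Among 40 ribosome biogenesis genes the median log2 fold change was -0.29, with 32 below 0 (50.4%) and a median log2 ratio between the controls of 0.02. Ncl, the abundant nucleolar protein nucleolin, was at 436, 599 and 672 CPM in Stim1 cKO, Stim1 HT and Stim1 Ctrl. Tcof1, which couples rRNA transcription to processing, was at 125, 42.4 and 51.1 CPM, a log2 fold change of 1.42 (adjusted p 0.0374 in edgeR, 0.00161 in DESeq2). It was the 1 gene of the list that DESeq2 called (6.3% of all genes higher, 5.26% lower). edgeR called 0, with 5 lower (13.4%) and 1 higher (18.5%) at an unadjusted p under 0.05. Among 24 genes of RNA polymerase I and III the median was -0.37, with 19 below 0 (50.4%), and both tools called 0, with 1 lower (13.4%) and 1 higher (18.5%) at that unadjusted p. Ubtf, which opens rDNA for polymerase I, was at 139, 196 and 210 CPM, and Taf1d, of its selectivity factor, at 76.2, 40.3 and 29.1 CPM. Neither list shared the higher level in Stim1 HT that the ribosomal protein genes had.

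Of 18 genes that control ribosomal protein mRNAs through mTORC1, LARP1 and MYC, 12 had a log2 fold change below 0 (50.4%), with a median of -0.27. Larp1, which binds the pyrimidine tract, was at 414, 212 and 243 CPM in Stim1 cKO, Stim1 HT and Stim1 Ctrl. Eif4ebp1, the repressor of eIF4E that mTORC1 inactivates, was at 24.6, 75.4 and 67.6 CPM, and Myc at 19.4, 29.7 and 35.2 CPM. Larp1 was highest and Eif4ebp1 lowest in Stim1 cKO, both outside the range of the controls. The log2 fold change was 0.87 for Larp1 (adjusted p 0.124 in edgeR, 0.0502 in DESeq2) and -1.54 for Eif4ebp1 (0.0347 and 0.000227). DESeq2 called Eif4ebp1 alone (5.26% of all genes lower, 6.3% higher). edgeR called 0, with 5 lower (13.4%) and 2 higher (18.5%) at an unadjusted p under 0.05. mRNA levels do not give the activity of mTORC1, which was not measured.

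**Figure D5:**
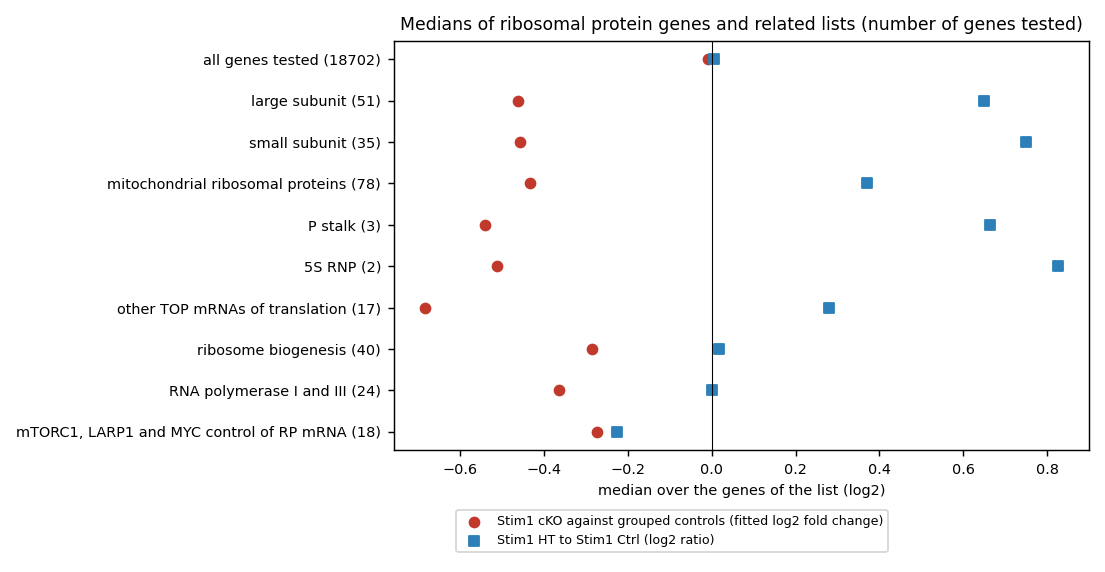
Median log2 fold change of Stim1 cKO against the grouped controls (circles) and median log2 ratio of Stim1 HT over Stim1 Ctrl (squares) for all genes, both subunits and related lists, with the number of genes tested in brackets. Both subunits have -0.46 against the grouped controls with TMM scaling, which becomes -0.09 in the large and 0.07 in the small subunit against Stim1 Ctrl alone (0.21 and 0.38 with library size and 0.07 and 0.24 with upper-quartile scaling), and 0.65 and 0.75 between the controls.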

How the data were processed

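For 3 libraries, the authors deposited a table of raw counts, reads per gene symbol, that had not been normalised. By the methods of the study, reads were checked with FastQC, trimmed and aligned with STAR, and DESeq2 was used. The genome build, annotation, counting tool, strand setting and versions are not given in the sources used here, and the labels name a SMARTER kit where the methods name a directional NEBNext kit.

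Counts were scaled by TMM and tested with edgeR 4.0.16 in R 4.3.3 (filterByExpr, 18702 genes kept, quasi-likelihood test, Benjamini-Hochberg adjustment over all genes). Its common dispersion was 0.106, with residual df of 1 and prior df of 4.15. Calls needed an adjusted p under 0.01 and over 2-fold. DESeq2 1.42.0 was the alternative tool. RLE, upper-quartile and library size scaling, TMM from genes outside the family, no filter, and leaving out either control were further alternatives. For the ratio between the controls the alternatives were chosen after seeing the data. The code was tested on simulated data. A fit without 1 control has no residual degrees of freedom, so the log2 ratio to the remaining control is given without a test. Depths, the floor of 3 counts and 95% Wilson intervals are in the text. Python 3.11.15, numpy 2.4.6, pandas 2.3.3, scipy 1.17.1 and matplotlib 3.10.9 were used.

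Gene positions, exons and coding lengths are from GENCODE M21 on GRCm38, in which all 87 genes were found, with coding length of the principal transcript. Exon length took all annotated exon bases of a gene, so it can exceed the length of a transcript. Promoters are from RefSeq on GRCm38.p6, whose starts can lie inside the GENCODE spans, as in Rpl15 and Rps2. The genes and lists were chosen with earlier results of these data known. Named by rule were Stim1, the 5 highest and 5 lowest genes by log2 fold change and by level per length, genes called by either tool, the P stalk, the 5S pair, paralogs with parents, untested genes, other ribosomal protein symbols, at most 3 genes a direction and the most abundant of each list, and the 3 most abundant, highest and lowest pseudogene symbols. Rps3a2, Rps3a3, Rpl4, Rpl6, Rps12, Rpl17, Rps24, Rps27a, Mylpf, Pvalb, Myog, Nefl, Amtn, Klk4 and the overlapping genes, the split into core, paralog and retrocopy, the length classes and the motifs were chosen after their values were seen. Some genes that these rules name are not reported here.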

Additional observations from a re-analysis of the deposited data

How the results depend on the processing

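edgeR called 0 genes of the family under its alternatives. Of all genes it called, with the main settings, 0% lower and 0.0749% higher. DESeq2 called 6 of the family lower, 6.98%, near its 5.26% of all genes. The median log2 fold change of the family, -0.46, was -0.48 with DESeq2, -0.21 with library size scaling, -0.34 with upper-quartile scaling and -0.49 without a filter, and -0.76 to -0.0439 with 1 control left out. For the large subunit these were -0.49, -0.22, -0.35 and -0.49, with -0.47 under TMM from genes outside the family and -0.76 to -0.0925 with 1 control left out. For the small subunit they were -0.45, -0.21, -0.34 and -0.45, and -0.76 to 0.0721. Shares of counts without mitochondrially encoded genes in the total were 4.09%, 5.98% and 3.45% in Stim1 cKO, Stim1 HT and Stim1 Ctrl, and with ribosomal proteins under other symbols 3.97%, 5.98% and 3.45%. The median log2 ratio between the controls, 0.70, was 0.66 with RLE, 0.79 with library size and 0.77 with upper-quartile scaling, and genes over 2-fold numbered 15, 21 and 21.

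Of 168 log2 fold changes of 28 named genes under another tool, scaling or filter, 160 kept their sign. With library size scaling, reversed values were 0.0785 for Rpl36, 0.21 for Rpl39, 0.0400 for Rpl39l, 0.00656 for Rps15, 0.16 for Rps27 and 0.0422 for Rps27l, and with upper-quartile scaling 0.0800 for Rpl39 and 0.0362 for Rps27. Each of these lay under the median of all genes in its setting, as with TMM. Without Stim1 HT 7 of the 28 changed sign and without Stim1 Ctrl 2. No paired analysis was possible because each genotype had 1 library and the labels pair none. Depth limits Rpl24, Rpl39l, Rpl6l and Rps12l1 most, and the lowest listed count was 1.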
